A study of Homo sapiens with 9 samples.

Results

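The histone lysine demethylases measured here are KDM1A, KDM2A, KDM2B, KDM3A, KDM4A, KDM4B, KDM4C, KDM5A, KDM5B and KDM6B, taken by symbol as 10 of the 20435 genes in the deposited data. Each was represented by the span with the highest mean over the libraries, out of 72 deposited spans for these genes. These spans run nominally from start codon to stop codon (coding spans), and that of KDM5B is described below. The cells were PC9, a human lung adenocarcinoma line driven by mutant EGFR, which carried the FUCCI4 cell cycle reporter in every group. Untreated cells (day 0) gave 5 libraries: G1 and S from each of clones 1 and 7, and G2 from clone 1. Cells kept for 28 days in 500 nM osimertinib, an EGFR kinase inhibitor, gave 4: G1 from each clone, and S and G2 from clone 1 only. Phases were sorted from glyoxal-fixed cells by DNA content and by the CDT1 and GMNN reporter colours. The labels list no 28-day group without drug, so exposure to osimertinib and time in culture cannot be told apart. Nor do they say if libraries of a clone came from separate cultures, so p-values measure only the spread between these libraries, which may be technical.

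All 10 genes were among the 12403 tested, which needed a mean log2(value + 1) of at least 7.01. Library depth ran from 8.83 M reads (M for mega) in day 0 G1 clone 7 to 108.7 M in day 0 G1 clone 1. The mean was 43.0 M, over 1 span per gene. The labels give an average of about 24 M a sample, and this gap is unexplained, so read counts and values per M reads rest on the recovered reads. Values count introns as well as exons, so they mix spliced and unspliced RNA. Read shares differed between the days in ways that bear on long genes: spans over 300 kb took 0.726% to 1.05% of reads at day 0 and 2.06% to 3.41% at day 28, and the density over 414 silent olfactory receptor genes rose from at most 0.00453 to at least 0.00769 reads per kb per M reads. The sort was checked by marker. The summed G2 and mitosis markers stood at 277 to 634 reads per M in G1, 1498 to 1685 in S and 3960 in G2 at day 0, and at 59.9 to 100.1, 1244 and 3678 at day 28. The 5 S phase markers did not separate S from G1 at day 0, with 1268 (clone 1) and 1145 (clone 7) reads per M in G1 and 1449 and 1087 in S, but at day 28 S had 1020 and G1 304 and 164. Keratins and EPCAM were abundant on both days (9 epithelial markers, 18553 to 29592 reads per M at day 0 and 11990 to 23129 at day 28). The lung lineage markers NKX2-1, NAPSA and SFTPB were low, with 3 to 259, 2 to 441 and 0 to 10 reads. Per M reads, NKX2-1 had 0.113 to 0.948 at day 0 and 0.464 to 8.49 at day 28. NAPSA had 0.227 to 1.20 and 1.42 to 14.5. The 5 leukocyte markers summed to 0.402 to 1.32 reads per M at day 0 and 2.36 to 3.04 at day 28. CD3E had 0 reads in 4 libraries, and PTPRC had at most 0.249 reads per M at day 0 and 0.524 to 2.21 at day 28. The 8 fibroblast and endothelial markers summed to 19.2 to 26.6 and 20.9 to 53.3. LUM had 0 reads in 8 libraries, whereas COL1A1, PECAM1, VWF and CDH5 had reads in every library. COL1A1 alone had 12.4 to 17.1 reads per M at day 0 and 13.9 to 46.5 at day 28.

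Histone lysine demethylases remove methyl groups from the tails of histones. KDM1A (LSD1) is an FAD-dependent amine oxidase that works on mono- and dimethylated H3K4 within the CoREST complex. The others carry a JmjC domain and use iron, oxygen and 2-oxoglutarate: the KDM5 enzymes act on methylated H3K4, KDM2A and KDM2B on dimethylated H3K36, KDM3A on mono- and dimethylated H3K9, the KDM4 enzymes on trimethylated H3K9 and H3K36, and KDM6B on H3K27. KDM5A is known from earlier work on PC9 cells as an enzyme that cells surviving EGFR inhibition depend on, which is why demethylases are followed in drug-tolerant persister cells.

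At day 28, 6 of the 10 demethylases were higher than at day 0 and 1 was lower. KDM2A, KDM4C, KDM4B, KDM5A, KDM2B and KDM3A rose, in that order of size, and KDM1A fell. KDM4A, KDM5B and KDM6B did not pass the test. These counts come from limma with day and phase as terms, at a Benjamini-Hochberg adjusted p under 0.05 over all tested genes. The background was high: 28.6% of tested genes were higher by the same rule and 26.5% lower, 55.1% together. The libraries of the 2 days did not overlap for the same 7 genes, where 39.8% of all tested genes did not (20.9% higher and 18.9% lower at day 28). The median log2 fold change was 0.96 over the 10 genes and 0.015 over all tested genes. Their median span was 83.7 kb, against 25.8 kb over tested genes, and once each library's trend with span length was removed their median was 0.68, against -0.041. In bulk RNA, fewer cells expressing a gene and less RNA per cell cannot be told apart.

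**Figure D1:**
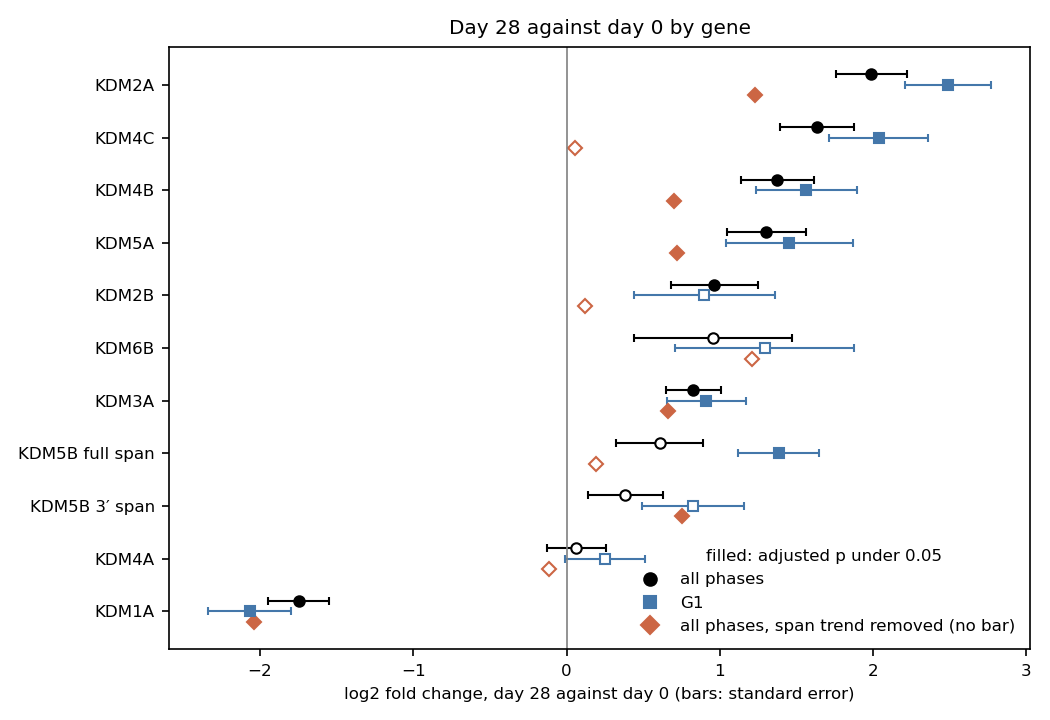
The horizontal axis is the log2 fold change of day 28 against day 0 for each gene, over all phases (circles, 9 libraries), in G1 (squares, 4 libraries) and over all phases with the span trend removed (diamonds), with bars for the standard error and filled symbols for an adjusted p under 0.05. KDM1A lies left of 0 in all 3, while KDM4C and KDM2B move close to 0 (0.054 and 0.12) with the span trend removed.

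The promoters of 4 members are shown as the 250 bases before the RefSeq start site (GRCh38.p14): KDM1A because it alone fell, KDM5A for its role in persister cells, and KDM3A and KDM4B because both are known to be induced in hypoxia. Capitals mark the hypoxia-response core (ACGTG or GCGTG, read on both strands) and the CCAAT box (both strands). KDM1A lies at chr1:23019218-23019467 (plus strand), KDM3A at chr2:86441121-86441370 (plus), KDM4B at chr19:4968863-4969112 (plus) and KDM5A at chr12:389321-389570 (minus).
KDM1A: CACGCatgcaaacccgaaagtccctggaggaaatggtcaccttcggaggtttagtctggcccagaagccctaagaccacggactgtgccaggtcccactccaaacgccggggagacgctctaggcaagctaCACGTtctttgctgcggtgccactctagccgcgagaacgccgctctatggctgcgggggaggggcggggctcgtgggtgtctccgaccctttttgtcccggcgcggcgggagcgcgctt
KDM3A: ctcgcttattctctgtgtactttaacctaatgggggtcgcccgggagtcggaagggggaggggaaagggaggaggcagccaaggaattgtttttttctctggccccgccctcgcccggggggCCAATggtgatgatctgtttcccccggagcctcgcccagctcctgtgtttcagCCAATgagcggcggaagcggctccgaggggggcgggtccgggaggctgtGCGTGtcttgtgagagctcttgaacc
KDM4B: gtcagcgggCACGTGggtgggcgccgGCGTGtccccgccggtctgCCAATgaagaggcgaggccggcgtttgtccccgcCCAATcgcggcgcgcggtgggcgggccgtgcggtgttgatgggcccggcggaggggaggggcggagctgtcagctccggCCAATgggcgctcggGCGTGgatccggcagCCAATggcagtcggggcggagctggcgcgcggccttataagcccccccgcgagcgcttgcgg
KDM5A: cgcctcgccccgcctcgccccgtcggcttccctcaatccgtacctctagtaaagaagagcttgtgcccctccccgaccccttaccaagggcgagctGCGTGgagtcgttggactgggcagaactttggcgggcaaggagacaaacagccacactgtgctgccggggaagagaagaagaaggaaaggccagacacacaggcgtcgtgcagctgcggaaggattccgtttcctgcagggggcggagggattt
In this window 9 of the 10 members (all but KDM2B) held a hypoxia-response core, as did 57.8% of 9874 promoters of tested genes. CCAAT was present in KDM2B, KDM3A, KDM4A and KDM4B, 4 of 10 against 35.3%. KDM4B had 4 copies of CCAAT and 4 matches to the core, of which 2 overlap as a palindrome. The core of SP and KLF sites, GGGCGG, was found in 6 members and in 68.1% of promoters. The core of ETS sites, CCGGAA, was found in KDM2B and KDM4C and in 26.1% of promoters. No member held any of the E2F forms TTTGGCGC, TTTCGCGC, TTTCCCGC and TTTGCCGC (4.62% of promoters) or the cyclic AMP response element TGACGTCA (2.93%). All motifs were read on both strands.

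Values are given below as log2(value + 1) on the deposited scale, at day 0 in the order G1 clone 1, G1 clone 7, S clone 1, S clone 7 and G2, and at day 28 in the order G1 clone 1, G1 clone 7, S and G2. Of the H3K4 enzymes, KDM1A (ENSG00000004487, chromosome 1, 23019597 to 23083364) held 14.61, 14.84, 14.73, 15.10 and 14.82 at day 0 and 12.86, 12.45, 13.29 and 13.54 at day 28. Every day 28 library lay below every day 0 library, and the 2 G1 libraries of day 28 were the lowest. KDM1A fell by 1.75 ± 0.20 (SE) on the log2 scale, 3.36-fold (adjusted p = 7.5e-05). In G1 alone it fell by 2.07 ± 0.27 (limma adjusted p = 0.0032), where clone 1 dropped by 1.75 and clone 7 dropped by 2.39. The fall was larger, 2.04, with the span trend removed. An antisense gene, AL031428.1, lies over 63218 bases of this span, and the strands were kept apart in the counts.

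KDM5A (ENSG00000073614, chromosome 12, 285456 to 389091) moved the other way. It held 12.36, 13.66, 12.53, 12.91 and 13.36 at day 0 and 14.38, 14.55, 14.14 and 14.21 at day 28. The day 0 libraries were spread widely, with G1 clone 7 the highest, and all lay below the 4 closely grouped day 28 libraries. The rise was 1.30 ± 0.26, or 2.47-fold (limma adjusted p = 0.0016), and 0.72 (adjusted p = 0.020) with the span trend removed. In G1 it was 1.45 ± 0.41 (adjusted p = 0.029), made of 2.02 in clone 1 and 0.89 in clone 7. That G1 call ended when the G1 library of day 0 clone 1 (0.80, adjusted p = 0.10), day 28 clone 1 (1.54, 0.10) or day 28 clone 7 (1.37, 0.12) was left out.

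KDM5B (ENSG00000117139, chromosome 1, minus strand) had 15 deposited spans. The one with the highest mean (12.52) is a 3.3 kb stretch at the 3′ end, 202726420 to 202729715, that is exonic throughout. The full coding span of 79.3 kb, 202729036 to 202808305, came next to it at 12.43. The 3′ span runs past the stop codon end of the full span, so only part of it lies within the full span. The 3′ span held 12.16, 12.62, 11.56, 11.97 and 13.11 at day 0 and 13.57, 12.86, 11.84 and 13.03 at day 28. The groups overlapped, and the change of 0.38 ± 0.24 did not pass (limma adjusted p = 0.20, 95% interval -0.15 to 0.91). It passed with the span trend removed (0.75, adjusted p = 0.033) and by voom (0.68, 0.03). Over the full span the values were 12.03, 12.44, 11.58, 11.74 and 12.58 at day 0 and 13.75, 13.49, 11.31 and 12.91 at day 28. The day 28 S library was the lowest of the 9, and the 2 day 28 G1 libraries were the highest. This gave 0.61 ± 0.29 over all phases (adjusted p = 0.092), but 1.38 ± 0.26 in G1, where the full span passed (2.61-fold, adjusted p = 0.0077). Without the day 28 S library the full span passed over all phases too (1.03, adjusted p = 0.011).

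**Figure D2:**
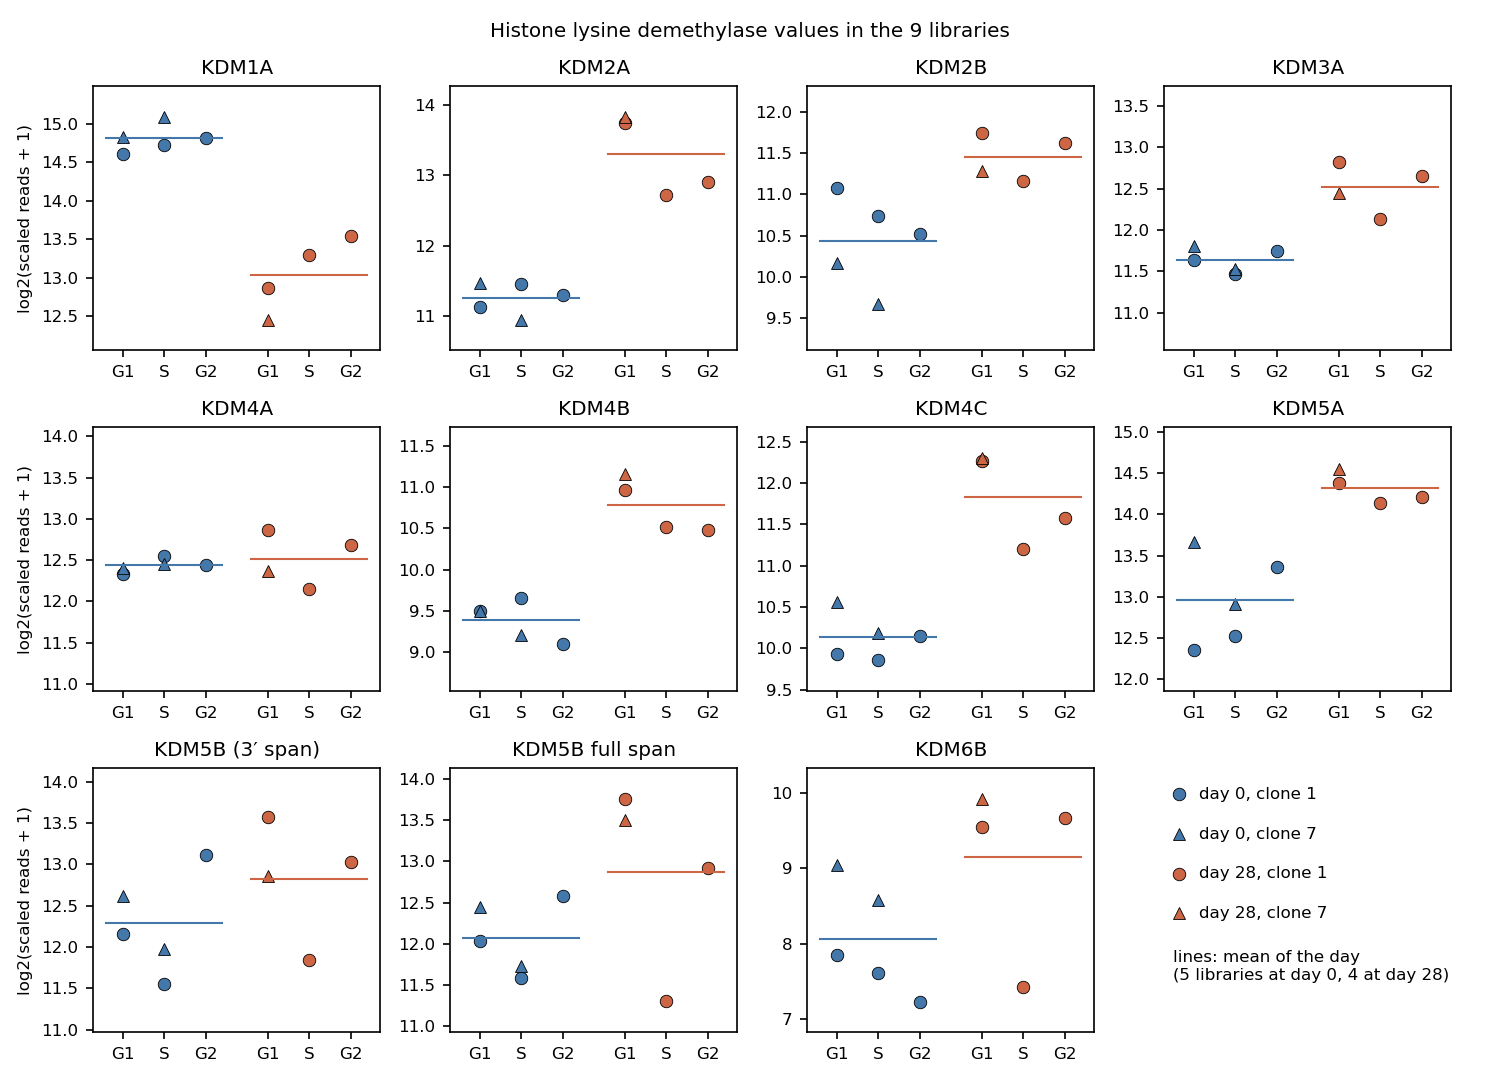
Each panel shows 1 gene, with log2(scaled reads + 1) on its own vertical axis and the 9 libraries by phase; colours separate the days, symbols the clones, and lines mark the mean of each day (5 and 4 libraries). The days do not overlap for KDM1A, KDM2A, KDM2B, KDM3A, KDM4B, KDM4C and KDM5A, and the day 28 S library drops to 7.42 for KDM6B.

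The H3K36 enzymes both rose. KDM2A (ENSG00000173120, chromosome 11, 67121317 to 67255055), which binds unmethylated CpG islands through a CXXC zinc finger, held 11.14, 11.47, 11.45, 10.95 and 11.30 at day 0. At day 28 it held 13.75, 13.83, 12.72 and 12.91, so each treated library exceeded each untreated one and G1 lay about 1 unit above S and G2. The rise of 1.99 ± 0.23, or 3.96-fold (limma adjusted p = 8.1e-05), was the largest of the 10 genes. It was 2.49 ± 0.28 in G1 (5.61-fold, adjusted p = 0.0025) and 1.23 (adjusted p = 8.7e-04) over all phases with the span trend removed.

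KDM2B (ENSG00000089094, chromosome 12, 121430116 to 121580052), the CpG island-binding subunit of the Polycomb complex PRC1.1, held 11.07, 10.16, 10.74, 9.68 and 10.52 at day 0 and 11.74, 11.29, 11.16 and 11.62 at day 28. The days were separated only narrowly, since day 0 G1 clone 1 came within 0.1 of day 28 S. KDM2B rose by 0.96 ± 0.28 (1.95-fold, limma adjusted p = 0.013), a call that ended with the span trend removed (0.12, adjusted p = 0.76). In G1 the change was 0.90 ± 0.46 (adjusted p = 0.16). It passed with clone as the block (adjusted p = 0.032).

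Among the H3K9 enzymes, KDM3A (ENSG00000115548, chromosome 2, 86442048 to 86492119) held 11.64, 11.81, 11.47, 11.53 and 11.75 at day 0 and 12.82, 12.45, 12.14 and 12.66 at day 28. The day 0 libraries agreed to within 0.35 (SD 0.15, n = 5), and all day 28 libraries lay above them. KDM3A rose by 0.83 ± 0.18 (1.77-fold, limma adjusted p = 0.0027) and by 0.66 (adjusted p = 0.0083) with the span trend removed. The G1 rise of 0.91 ± 0.26 (adjusted p = 0.028) was lost without the G1 libraries of day 0 clone 1 (0.82, adjusted p = 0.10), day 0 clone 7 (1.00, 0.053) or day 28 clone 1 (0.72, 0.11), and without either day 0 S library (both 0.91, 0.062).

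KDM4A and KDM4B are paralogs that act on trimethylated H3K9 and H3K36. KDM4A (ENSG00000066135, chromosome 1, 43653176 to 43704370) held 12.33, 12.40, 12.56, 12.45 and 12.45 at day 0 and 12.87, 12.37, 12.16 and 12.69 at day 28. The day 28 libraries lay on both sides of the day 0 libraries, at 0.064 ± 0.19 (limma adjusted p = 0.80, 95% interval -0.36 to 0.49). The sign of this value turned with median-of-ratios scaling (-0.048), with the span trend removed (-0.11) and without day 28 G1 clone 1 (-0.060). In G1 it stood at 0.25 ± 0.26 (adjusted p = 0.47). The gene AL451062.3 covers all 51195 bases of the KDM4A span on the same strand, so reads of the 2 genes cannot be told apart. KDM4B (ENSG00000127663, chromosome 19, 5032891 to 5151511) held 9.50, 9.50, 9.66, 9.21 and 9.09 at day 0 and 10.97, 11.16, 10.52 and 10.48 at day 28. The day 0 libraries held 56 to 816 reads of it, and every day 28 library lay higher. KDM4B rose by 1.37 ± 0.24 (2.59-fold, adjusted p = 7.0e-04), and by 0.70 (adjusted p = 0.029) with the span trend removed. In G1 the rise was 1.56 ± 0.33 (adjusted p = 0.011), and it missed the threshold without day 28 G1 clone 7 (1.47, adjusted p = 0.052).

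KDM4C (ENSG00000107077, chromosome 9, 6792989 to 7174729) has the widest span of the 10, at 381.7 kb. It held 9.93, 10.56, 9.86, 10.19 and 10.14 at day 0 and 12.26, 12.30, 11.20 and 11.57 at day 28. The 2 day 28 G1 libraries nearly coincided at the top, and S was the lowest treated library while still above day 0. KDM4C rose by 1.63 ± 0.24 (3.10-fold, limma adjusted p = 3.0e-04) and in G1 by 2.04 ± 0.32 (4.10-fold, adjusted p = 0.0046). It shares its length class with 437 tested genes over 300 kb, of which 354 were higher, 6 were lower and the median was 2.02. With the span trend removed KDM4C stood at 0.054 (adjusted p = 0.86), and at 0.53 in G1 (adjusted p = 0.18). The olfactory receptor density would account for 3.82% to 13.5% of its reads at day 0 and 4.82% to 28.8% at day 28, and with that density subtracted the value was 1.54 (adjusted p = 0.0028). For KDM4B that share reached 8.67% at day 0 and 19.1% at day 28, and for KDM2B 6.74% and 10.9%. The sense-intronic gene AL513412.1 covers 76190 bases of the KDM4C span.

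KDM6B (ENSG00000132510, chromosome 17, 7845555 to 7853521), the H3K27 enzyme known as an inducible gene, had the fewest reads, 41 to 395 a library. It held 7.85, 9.05, 7.60, 8.58 and 7.22 at day 0 and 9.55, 9.93, 7.42 and 9.67 at day 28. G1 and G2 of day 28 lay above every day 0 library, and S lay at the bottom of the day 0 range. The change of 0.96 ± 0.51 (limma adjusted p = 0.13, 95% interval -0.17 to 2.08) did not pass. It passed when clone was the block (1.13, adjusted p = 0.044), in clone 1 alone (1.32, 0.038) and without the day 28 S library (1.68, 0.019). By voom it passed too (1.50, 0.016). It was lower, at 0.51, without the G2 library of day 0 (adjusted p = 0.45) or day 28 (0.46), and 0.39 with quantile scaling (0.56). In G1 the change was 1.29 ± 0.58 (adjusted p = 0.11, and 0.039 with the block), and it ran from 0.69 (without day 0 G1 clone 1, adjusted p = 0.40) to 1.89 (without day 0 G1 clone 7, 0.051).

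In the G1 comparison as a whole, which has 2 libraries a day, 5 of the 10 demethylases were higher (KDM2A, KDM3A, KDM4B, KDM4C and KDM5A) and KDM1A was lower. By the same rule 19.9% of tested genes were higher and 19.1% lower, 39% together. The count was 8 with clone as the block (49.1% of tested genes), which added KDM2B and KDM6B, and 3 with the span trend removed (33% of tested genes), when KDM1A, KDM2A and the 3′ span of KDM5B (1.31, limma adjusted p = 0.024) passed. The span trend setting for G1 was chosen after the data had been seen.

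Levels between genes were compared as reads per kb of span per M reads, introns included, with the full span for KDM5B, a scale on which intron-rich spans come out low and whose library scaling differs from that of the deposited values. At day 0 KDM1A led with a median of 4.07 (4.02 to 5.20), clear of KDM4A at 1.03 (0.932 to 1.23). KDM5A (0.704), KDM3A (0.609), the full KDM5B span (0.547) and KDM6B (0.299) followed, each overlapping its neighbours in this order, then KDM2A (0.175), KDM2B (0.0864) and KDM4B (0.0535), which overlapped likewise. KDM4C was last at 0.0265 (0.0254 to 0.0347), below every KDM4B library. At day 28 KDM5A led at 2.25 (1.93 to 2.80) and overlapped KDM1A, now at 1.57. The full KDM5B span (1.43), KDM3A (1.40), KDM4A (1.35), KDM6B (1.14) and KDM2A (0.937) formed a run of overlapping neighbours. KDM2B (0.219), KDM4B (0.169) and KDM4C (0.122) stayed at the bottom, with no library of KDM2A as low as any of KDM2B. The 3′ span that represents KDM5B elsewhere holds no intron and lay above all of these, at 14.4 on day 0 and 27.8 on day 28.

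The phase comparisons asked whether the demethylases vary through the cycle. Between S and G1 at day 0 no demethylase passed, in libraries that the S phase markers did not separate, nor did any tested gene (0% by limma, with 446 genes at an unadjusted p under 0.05, 3.6%, and no other tool run). The largest value among the 10 was that of KDM5B, -0.63 ± 0.33 over the 3′ span and -0.58 ± 0.26 over the full span. At day 28, S and G2 together were set against G1, with 1 library each assumed to vary like the other groups. By that test 4.74% of genes passed and 0 of the 10 demethylases did on the spans chosen by mean. The full KDM5B span passed, lower in S and G2 than in G1 by 1.51 ± 0.26 on the log2 scale (adjusted p = 0.025). That call ended without day 28 G1 clone 1 (-1.38, adjusted p = 0.081) or clone 7 (-1.64, 0.11). KDM2A was at -0.97 ± 0.28 (adjusted p = 0.089), KDM4C at -0.90 ± 0.32 (0.14) and KDM1A at 0.76 ± 0.27 (0.14). For each of these 3 genes the 2 G1 libraries lay on 1 side of both S and G2. This also held for KDM4B, KDM5A and the full KDM5B span, and its share over all tested genes was not counted.

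Whether the day 28 difference depends on phase was tested directly with a day-by-phase term. No demethylase passed, and no tested gene did (0% by limma, 1382 genes or 11.1% at an unadjusted p under 0.05, and no other tool run). The values furthest from 0 were those of the full KDM5B span (-1.45 ± 0.38, adjusted p = 0.26) and KDM2A (-0.93 ± 0.36, adjusted p = 0.39). Between the clones, clone 7 against clone 1 with day and phase as terms, 0 of the 10 genes passed where 0.613% of tested genes did. KDM2B was lower in clone 7 in day 0 G1 (10.16 against 11.07), day 0 S (9.68 against 10.74) and day 28 G1 (11.29 against 11.74), at -0.75 ± 0.24 (adjusted p = 0.17). KDM6B was higher in clone 7 in all 3 pairs, at 1.12 ± 0.49 (limma adjusted p = 0.31). So were KDM5A, at 0.55 ± 0.25 (adjusted p = 0.32), and KDM4C, at 0.40 ± 0.25 (adjusted p = 0.47). The share of all tested genes with the same sign in all 3 pairs was not counted.

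Where a gene's deposited spans nest, the widest span can be divided into a 5′ and a 3′ part, and the reads of each part recovered. Poly(A) selection favours 3′ ends, and the 5′ parts are mostly intron. Division at a span with the same stop codon end was possible for KDM2A, KDM2B and KDM4C. None of these 3 passed the limma test for a change of the 5′ to 3′ ratio between the days, where 20% of 4365 genes did. The change in KDM2A was 1.58 ± 0.69 on the log2 scale (adjusted p = 0.14). Its 5′ part (67121317 to 67180087, 58.8 kb, 0.841% exonic) held 0.0105, 0.112, 0.0234, 0.0202 and 0.0285 reads per kb per M reads in the untreated libraries and 0.538, 0.755, 0.226 and 0.256 at day 28. Every day 28 library exceeded every day 0 library there, and day 0 G1 clone 7, with 58 reads, stood above the other 4. Without that library the change was 2.27 (adjusted p = 0.012). The 3′ part of KDM2A (67180088 to 67255055, 7.99% exonic) had a median of 0.275 at day 0 and 1.36 at day 28, so both parts were higher.

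Division at a span sharing either end, a rule chosen after the data had been seen, was possible for all 10 genes and tested for 9. KDM6B, with 0 to 34 reads a library in its 5′ part, fell below the mean of 10 depth-scaled reads that each part needed. KDM5B passed, as did 19.5% of 9536 genes, and the other 8 did not. The ratio in KDM5B rose by 1.31 ± 0.31 (limma adjusted p = 0.028). Its 5′ part (202772769 to 202808305, 6.34% exonic) held 0.0287, 0.0542, 0.0250, 0.0251 and 0.0248 reads per kb per M reads in the untreated libraries, from 17 to 111 reads, and 0.326, 0.368, 0.0461 and 0.0960 at day 28. The 2 day 28 G1 libraries were far above the rest, and day 28 S lay within the day 0 range. The 3′ part (202729036 to 202772768, 41.0% exonic) had a median of 0.968 at day 0 and 2.40 at day 28, with day 28 S the lowest of the 9 libraries at 0.603. The call was lost without any 1 library other than day 0 G1 clone 7 (adjusted p of 0.052 to 0.082, values of 1.13 to 1.39). In KDM5A the 5′ part went from a median of 0.252 to 0.623 and the 3′ part from 2.16 to 7.43, with a ratio change of -0.14 ± 0.28 (adjusted p = 0.75). In KDM1A both parts were lower, the 5′ part at 0.516 and then 0.126 and the 3′ part at 8.74 and then 3.42, with a ratio change of -0.51 ± 0.42 (adjusted p = 0.43).

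**Figure D3:**
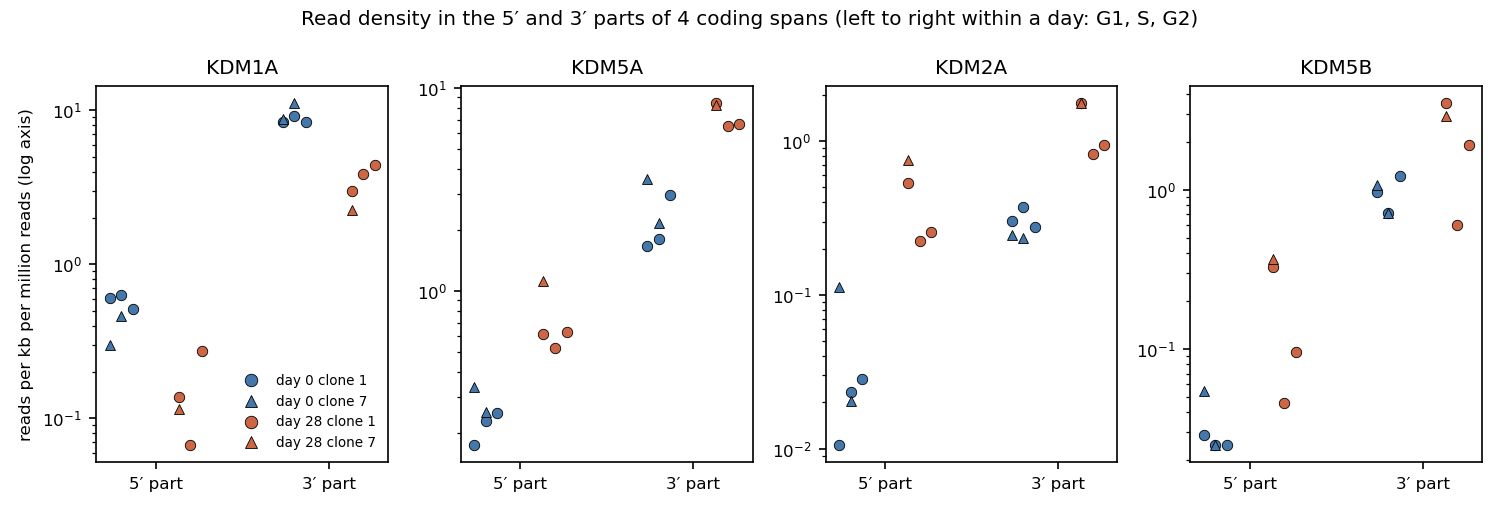
The vertical axis (log scale, its own in each panel) is the read density of the 5′ and 3′ parts of 4 coding spans, in reads per kb per M reads, with 1 point a library, blue for day 0 and orange for day 28. KDM1A is lower at day 28 in both parts, KDM5A and KDM2A are higher in both, and in KDM5B the day 28 S library falls to 0.0461 and 0.603.

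Of 14 other genes of the histone lysine demethylase families, which include the inactive JARID2, 12 were tested (KDM4D and KDM7A were too low). At day 28, 6 were higher and 2 lower, with a median of 0.46, where 28.6% and 26.5% of all tested genes were. JARID2, a catalytically inactive JmjC protein of PRC2, rose by 1.47 ± 0.28 (limma adjusted p = 0.0012), the H3K9 family member JMJD1C by 1.34 ± 0.22 (5.9e-04), and the X-linked H3K27 demethylase KDM6A by 1.24 ± 0.23 (0.0012). RIOX1, a JmjC oxygenase of the nucleolus, fell by 1.31 ± 0.27 (0.0022). KDM5C, an H3K4 enzyme of the KDM5 family, stood at 0.38 ± 0.19 (adjusted p = 0.10), and it passed without the day 28 S library (0.58, 0.041), by voom (0.65, 0.017) and with quantile scaling (0.51, 0.044). With the span trend removed, 0 of the 12 were higher and 1 was lower (23.1% and 25.4% of all tested genes), with JARID2 at 0.16, JMJD1C at -0.038 and KDM6A at 0.038. These 3 genes span 273.7, 297.6 and 237.9 kb.

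The methyltransferases that write the same marks were taken next. Their counts stand beside 28.6% of all tested genes higher and 26.5% lower. Of 15 H3K4 methyltransferase and COMPASS genes, 5 were higher and 2 lower (median 0.14). The large enzymes KMT2C (1.53 ± 0.24), KMT2A (1.50 ± 0.23) and KMT2D (1.35 ± 0.25) rose (limma adjusted p of 3.5e-04 to 0.0011), and WDR5, a core subunit they share, fell by 1.19 ± 0.20 (6.9e-04). KMT2C stood at 0.14 (adjusted p = 0.55) with the span trend removed, whereas KMT2D stood at 1.36. Of 12 genes of H3K9 methylation and heterochromatin, 6 were lower and 1 higher (median -0.52). The methyltransferase SUV39H1 fell by 1.64 ± 0.49 (adjusted p = 0.014), and the HP1 proteins CBX5, CBX1 and CBX3 fell by 1.22 ± 0.33, 1.20 ± 0.25 and 1.13 ± 0.17 (adjusted p of 3.7e-04 to 0.0084). SUV39H1 did not pass by voom (-0.98, adjusted p = 0.085). EHMT2 (-0.17 ± 0.19, adjusted p = 0.49) and SETDB1 (0.44 ± 0.23, adjusted p = 0.13) did not pass. SETDB1 passed with clone as the block (0.51, 0.045), in clone 1 alone (0.66, 0.027), by voom (0.76, 0.0088) and without the day 0 G1 library of clone 7 (0.59, 0.046).

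Of 11 PRC2 genes, 3 were higher and 3 lower (median 0.026), where 28.6% and 26.5% of all tested genes were. The catalytic subunit EZH2 stood at 0.031 ± 0.36 (limma adjusted p = 0.95). PHF19 fell by 1.89 ± 0.39 (0.0019) and PHF1, its paralog among the PRC2 accessory proteins, rose by 0.94 ± 0.21 (0.0029). The histone chaperones RBBP7 (-0.89 ± 0.18) and RBBP4 (-0.87 ± 0.23) fell. RBBP4 stood at -0.59 (adjusted p = 0.068) with quantile scaling. Of 10 methyltransferases for H3K36, H3K79 and H4K20, 3 were higher and 0 lower (median 0.38), among them ASH1L (1.64 ± 0.25), KMT5C (0.81 ± 0.22) and SETD2 (0.52 ± 0.17, adjusted p = 0.020). The SETD2 call ended without the day 0 G1 library of clone 1 (0.46, adjusted p = 0.054), in clone 1 alone (0.49, 0.077) and when scaled by median-of-ratios (0.41, 0.057), and the value turned to -0.31 with the span trend removed.

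Partners of 3 members were examined as complexes, beside 28.6% of all tested genes higher and 26.5% lower. Of 10 tested CoREST genes, partners of KDM1A, 4 were higher and 2 lower (median 0.33). RCOR1, the scaffold that links KDM1A to nucleosomes, rose by 2.12 ± 0.24 (limma adjusted p = 7.3e-05), from a mean of 10.00 ± 0.49 (SD, n = 5) to 12.21 ± 0.39 (SD, n = 4), while KDM1A fell. PHF21A, the reader of unmethylated H3K4 in this complex, rose by 1.84 ± 0.23 (1.3e-04), and the deacetylase HDAC1 fell by 0.92 ± 0.16 (8.7e-04). RCOR1 and PHF21A kept their calls with the span trend removed (1.37 and 1.00). GSE1 rose by 0.75 ± 0.23 (0.016), a call lost without the G2 library of day 0 (0.63, 0.068) or day 28 (0.63, 0.070) without day 28 S (0.75, 0.056) and with the span trend removed (0.50, 0.096). Of 9 tested PRC1.1 genes, partners of KDM2B, 3 were higher and 3 lower (median 0.18). The ubiquitin ligase RNF2 fell by 1.59 ± 0.27 (6.2e-04), SKP1 by 1.56 ± 0.21 (1.7e-04) and the deubiquitinase USP7 by 1.14 ± 0.24 (0.0024). RYBP rose by 0.97 ± 0.33 (0.026). That call was lost when the day 0 library of G1 clone 1 (0.86, 0.063), S clone 7 (0.92, 0.052) or G2 (0.90, 0.067), or the day 28 library of G1 clone 1 (1.00, 0.053), S (1.00, 0.066) or G2 (0.90, 0.072), was left out, and also with quantile scaling (0.42, 0.29), without a filter (0.97, 0.054) and with the span trend removed (0.65, 0.11). BCOR was too low to test.

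Of 14 SIN3 genes, partners of KDM5A, 4 were higher and 5 lower (median 0.042), where 28.6% and 26.5% of all tested genes were. EMSY (1.68 ± 0.25), ARID4A (1.52 ± 0.25) and ARID4B (1.45 ± 0.28) rose (limma adjusted p of 2.9e-04 to 0.0015), and ARID4B did not pass with the span trend removed (0.57, 0.057). SAP30 fell by 1.32 ± 0.44 (0.024), a call lost without the G1 libraries of day 0 clone 7 (-0.94, 0.062), day 28 clone 1 (-1.29, 0.062) or day 28 clone 7 (-0.95, 0.060), in clone 1 alone (-0.60, 0.14), by voom (-0.60, 0.20), with the span trend removed (-1.03, 0.062) and with the olfactory density subtracted (-1.34, 0.051). The scaffold SIN3A fell by 0.71 ± 0.26 (0.039). It lost its call when the day 0 library of G1 clone 1 (-0.54, 0.12), S clone 1 (-0.61, 0.085) or G2 (-0.77, 0.071), or the day 28 library of G1 clone 7 (-0.55, 0.10), S (-0.74, 0.094) or G2 (-0.77, 0.070), was left out, by voom (-0.51, 0.14) and with the olfactory density subtracted (-0.74, 0.051).

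JmjC enzymes need 2-oxoglutarate and are inhibited by succinate and fumarate, so the enzymes that make or use these were counted. Of 18 genes, 12 were lower and 2 higher, with a median of -0.92, where 26.5% and 28.6% of all tested genes were. Fumarate hydratase, FH, fell by 1.98 ± 0.27 (limma adjusted p = 2.1e-04), SDHC, a succinate dehydrogenase subunit, by 1.95 ± 0.28 (2.7e-04), IDH1, which makes 2-oxoglutarate from isocitrate, by 1.82 ± 0.21 (7.5e-05) and the aminotransferase GOT2 by 1.63 ± 0.25 (4.0e-04). OGDH, which consumes 2-oxoglutarate, stood at -0.038 ± 0.26 (adjusted p = 0.91). With the span trend removed 11 were lower and 1 higher, where 25.4% and 23.1% of all tested genes were.

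Several demethylases are also targets of hypoxia-inducible factors, and 19 tested genes of that pathway gave 3 higher and 3 lower (median 0.056). Over all tested genes 28.6% were higher and 26.5% lower. EGLN3, an oxygen sensor and HIF target, rose by 2.52 ± 0.27 (limma adjusted p = 6.1e-05) and PFKFB4, a regulator of glycolysis, by 1.30 ± 0.27 (0.0022). The glucose transporter SLC2A1 fell by 2.36 ± 0.19 (1.9e-05) and the oxygen sensor EGLN1 by 1.01 ± 0.28 (0.0096). EGLN1 did not pass in clone 1 alone (-0.66, adjusted p = 0.071) or by voom (-0.62, 0.060). Of 16 HDAC and sirtuin deacetylases, 8 were higher and 1 lower (median 0.62), where 28.6% and 26.5% of all tested genes were. SIRT4 rose by 1.91 ± 0.41 (0.0025), HDAC5 by 1.51 ± 0.20 (1.8e-04), HDAC8 by 1.32 ± 0.27 (0.0021) and HDAC4 by 1.15 ± 0.35 (0.016). HDAC4 lost its call without the G2 library of day 0 (1.03, 0.064) or day 28 (1.03, 0.065) without day 28 S (1.05, 0.076), with quantile scaling (0.85, 0.055) and with the olfactory density subtracted (1.00, 0.059). With the span trend removed HDAC5 stood at 1.46, HDAC8 at 0.10 and HDAC4 at -0.23. IGF1R, the receptor kinase reported to act with KDM5A in persister cells, rose by 1.82 ± 0.25 (2.1e-04) over a span of 307.9 kb and stood at 0.41 (0.24) with the span trend removed.

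**Figure D4:**
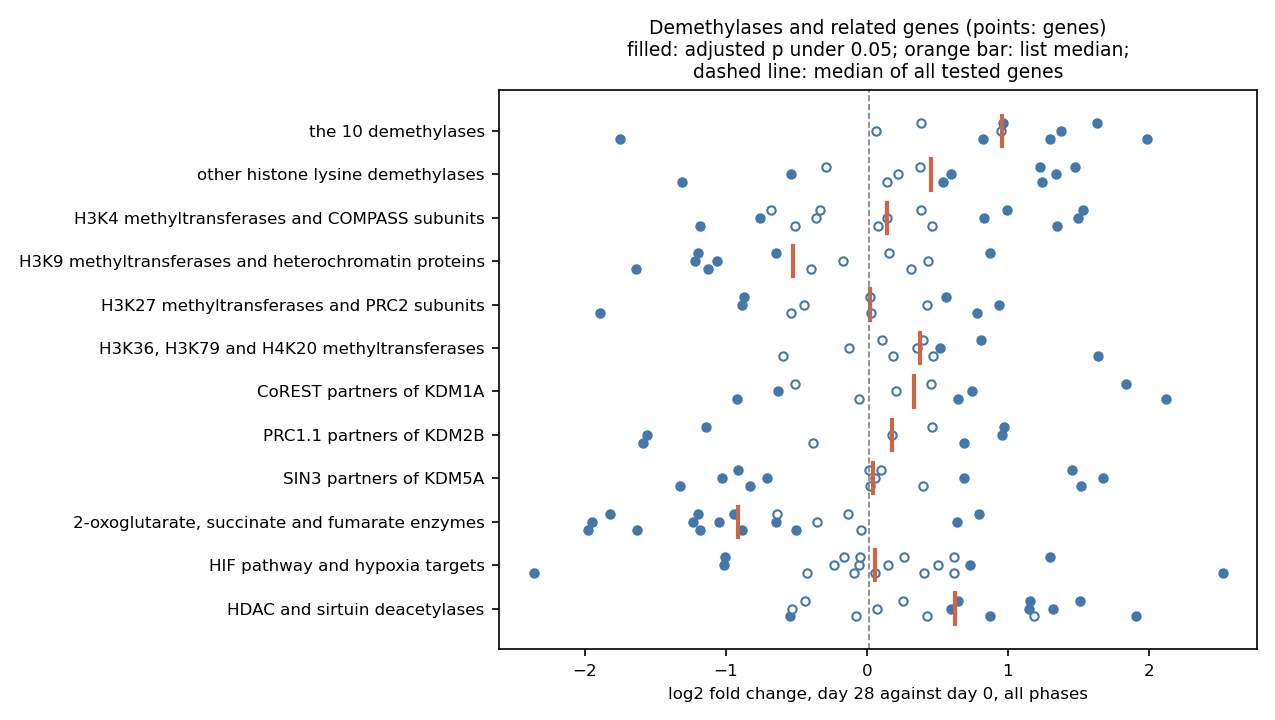
Each point is a gene, at its log2 fold change of day 28 against day 0 over all phases, with filled points for an adjusted p under 0.05, an orange bar for the list median and a dashed line for the median of all tested genes. Of the 12 lists the 10 demethylases have the highest median (0.96) and the 18 genes of 2-oxoglutarate, succinate and fumarate the lowest (-0.92).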

How the data were processed

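RNA was measured in 9 libraries, and the authors deposited 1 log2 value per coding transcript and library (80037 transcripts). Per the submitters' processing notes the genome build was GRCh38, the aligner HISAT2 2.1.0, and DESeq2 was used in an unnamed version. The counter and the scaling are not given in the sources used here. The deposited log2 values step in whole multiples of 1 amount per library: 100% of values up to 1000 reads lay within 0.05 of a whole number of reads (a library's 0 was entered as 0.9 reads), so reads were recovered. A same-strand gene nested in another never had more reads than its host (0 of 120), against 54 of 137 on opposite strands, so strands are kept apart. Of the 72 demethylase spans, 58 are named in GENCODE v29 and 48 have its coordinates.

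Values were analysed as log2(value + 1), with the deposited value first made linear. Genes entered with a mean log2 value of at least 7.01, which equals 10 reads in the library of lowest depth. Comparisons used limma 3.58.1 in R 4.3.3 (eBayes with trend, two-sided, Benjamini-Hochberg over all tested genes) with Python 3.11.15, numpy 2.4.6, pandas 2.3.3 and matplotlib 3.10.9. Day was tested with phase as a term, G1 and the phases on 6 group means with a shared spread. Alternatives were other scalings, pseudocounts and filters, voom on the recovered reads, clone as a replicate block, a smooth trend with log10 span removed per library, olfactory receptor density subtracted, and each library left out. That a clone number marks the same clone on both days was assumed from the labels. Within day 0, the clone 7 minus clone 1 differences in G1 and in S had a correlation of 0.651. Across days it was low: the day 28 G1 differences gave 0.114 with day 0 G1 and 0.295 with day 0 S. Identity of the clones across days was not tested otherwise. The fits were also run on simulated reads that held no clone, culture, phase or span effect, so that check does not cover these. The members, gene lists and naming rule (all 10 members, up to 4 called genes a list with the largest change, and 12 single genes whatever their result) were chosen with earlier results of these data known. Promoters were matched by symbol to RefSeq (10 of 10).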

Additional observations from a re-analysis of the deposited data

Results flagged for a closer look

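Of 22 groups of 4 or 5 libraries examined among the 10 demethylases and the full KDM5B span, 1 held a library far from the others by Dixon's criterion, and chance alone gives about 1 in 20. KDM6B in the day 28 S library (clone 1) stood at 7.42 on the log2 scale, from 77 reads, against 9.55, 9.93 and 9.67 in the other 3 day 28 libraries. The gap to the nearest of these was 0.851 of the whole range. In the same library the full KDM5B span was also the lowest of day 28, at 11.31 against 12.91 to 13.75. Mitochondrial transcripts took 21.6% of the reads of that library, the highest share of the 9. Its part in the KDM6B value was not tested.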

How the results depend on the processing

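The count of demethylases called was 7 over all phases and 6 to 9 under the alternatives (9 by voom, 8 with clone as the replicate block or in clone 1 alone, 6 with the span trend removed, 7 to 8 without any 1 library), while 6836 of 12403 tested genes were called, and 6855, 7238, 6781 and 6019 in those first 4 settings. In G1 it was 6, 4 to 6 without any 1 library, 8 with the block and 3 with the span trend removed. KDM1A, KDM2A, KDM3A, KDM4B and KDM5A kept their call over all phases in all 19 alternatives. KDM5B gained one with the span trend removed (0.75) and by voom (0.68), and KDM6B and the full KDM5B span by voom (1.50 and 0.92). The median over all genes was 0.015, and -0.097 with median-of-ratios, -0.11 with quantile scaling and 0.29 by voom. The split of higher against lower genes was 3544 to 3292, 3176 to 3774 with median-of-ratios, 4980 to 3352 without a filter and 4633 to 2222 by voom.

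Over all genes, leaving out 1 library gave 5756 to 6621 calls for day 28 against day 0, 2515 to 4851 in G1 (2515 without day 28 G1 clone 1), 0 for S against G1 at day 0, 46 to 748 for S and G2 against G1 at day 28 (46 without day 28 G1 clone 7; leaving out S or G2 was not run), 0 to 56 for day by phase, 9 to 332 for the clones and 354 to 1049 for the 5′ to 3′ ratio (354 without day 28 S). S against G1 at day 0 gave 2 without a filter. S and G2 against G1 at day 28 gave 588 calls, 1245 with quantile scaling and 1156 without a filter. The clones gave 76, 32 and 163. The 5′ to 3′ ratio gave 873, and 1857 with spans sharing either end.

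Among the 10 demethylases, the values that turned in sign were all uncalled. In the other lists 4 called genes turned with the span trend removed: JMJD1C from 1.34 to -0.038, HDAC4 from 1.15 to -0.23, SETD2 from 0.52 to -0.31 and AEBP2 from 0.78 to -0.36. KDM4A over all phases went from 0.064 to -0.048 (median-of-ratios), -0.11 (span trend removed) and, with 1 library left out, to between -0.060 (without day 28 G1 clone 1) and 0.25. KDM2B in G1 went from 0.90 to -0.019 (span trend removed). For S and G2 against G1 at day 28, leaving out 1 library gave -0.35 to 0.10 for KDM2B and -0.45 to 0.050 for KDM4A (the upper values without day 28 G1 clone 1), and KDM5A went to 0.019 with clone as the replicate block. For day by phase, KDM2B went to -0.096 with the block and to between -0.33 (without day 0 G1 clone 1) and 0.57 with 1 library left out. There KDM3A ran from -0.35 to 0.031 (without day 28 G1 clone 1), KDM5A from -0.93 to 0.37 (without day 0 G1 clone 1) and KDM6B from -1.96 to 1.16 (without day 28 S). The cause was not tested. KDM6B had the fewest reads of the 10 genes (41 to 395 a library), and intervals for counting error would not cover clone or culture.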
